A study of Mus musculus with 8 samples.

Results

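The transcripts described here encode calcium/calmodulin-dependent protein kinase II (CaMKII) and its natural inhibitors. They were chosen by name, with earlier results of these data known. They are the 4 subunit genes Camk2a, Camk2b, Camk2d and Camk2g, and the 2 inhibitor genes Camk2n1 and Camk2n2. These are 6 of the 55401 genes in the deposited count table, and all 6 were found there. RNA immunoprecipitation (RIP) pulls a protein out of a lysate with an antibody and sequences the RNA that comes with it. The series held 3 libraries precipitated by anti-CaMKIIβ (CaMKIIβ RIP), 3 precipitated by control IgG (IgG RIP) and 2 of RNA that was not precipitated (Input). All 8 came from tissue labelled hippocampus of C57BL/6 mice and were total RNA extracted with TRIzol and treated with DNase. Genotype, treatment, age and the number of animals per library are not given in the sources used here. Nothing states that replicates came from separate animals, so the p-values measure the spread between these libraries, which may be technical.

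CaMKII is a large multi-subunit enzyme. Calcium-loaded calmodulin switches each subunit on, and neighbouring subunits then phosphorylate each other, which keeps the kinase active after the calcium signal has ended. The α and β subunits dominate in neurons, with α prevailing in the forebrain and β being more prominent in the cerebellum, and β also tethers the enzyme to actin filaments. The γ and δ subunits are found in many tissues. The α transcript is a classic example of an mRNA carried into dendrites. The inhibitors made by Camk2n1 and Camk2n2 are small brain proteins that bind the active kinase and block its catalytic site.

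Libraries held between 17273957 and 28138289 counts, and the lowest count of any of the 6 genes in any library was 478. CaMKIIβ RIP replicate 2 stood apart: 19247 genes had at least 1 count there, against 24865 to 31152 in the other 7 libraries. Levels and fold changes of Camk2n2, the gene most affected, are given with and without it. All 10 hippocampal markers had counts, and 8 were above 1 CPM (the count scaled to a common library size) in every library; the exceptions, chosen here after their values were seen, were Spink8 and Emx1. All 10 cerebellar markers were above 1 CPM in every library too. Of the cerebellar markers 3 were higher in all 6 RIP libraries than in both Input libraries, 3 were lower and 4 overlapped. Their summed level was 6732 to 7662 CPM in CaMKIIβ RIP, 7123 to 7409 in IgG RIP and 4738 to 4874 in Input, but its direction came from 1 gene, Fat2, singled out after its values were seen. Without Fat2 the sum was 2836 to 2909 CPM in CaMKIIβ RIP, 2830 to 2860 in IgG RIP and 3233 to 3267 in Input. That of the 5 astrocyte markers with a name in the table, of 6 on the list, was 7844 to 9246 CPM in CaMKIIβ RIP, 8683 to 9945 in IgG RIP and 3977 to 4069 in Input. All 5 were higher in every RIP library than in Input. Of the hippocampal markers 5 were higher in every RIP library than in Input, 2 were lower and 3 overlapped. All 10 summed to 1067 to 1349 CPM in CaMKIIβ RIP, 1309 to 1358 in IgG RIP and 997 to 1017 in Input. Without Zbtb20, the highest of them, the sum was 301 to 323 CPM in CaMKIIβ RIP, 308 to 315 in IgG RIP and 281 to 290 in Input. The part of these differences in the results below was not tested. In such bulk RNA, fewer cells of a type, less RNA per cell and a different recovery of RNA in the precipitate cannot be told apart.

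The first question was how abundant each transcript was. Levels between genes were compared as CPM per kb, that is, CPM divided by the joined length of all annotated exons of the gene. In Input the order from high to low was Camk2a at 105 ± 8.06, Camk2b at 76.8 ± 0.75, Camk2n1 at 65.7 ± 2.66, Camk2n2 at 25.8 ± 0.766, Camk2g at 23.7 ± 0.859 and Camk2d at 9.79 ± 0.319 CPM per kb (SD, n = 2). The 2 Input values of neighbouring genes did not overlap at any step, although Camk2n2 (25.3 and 26.3) and Camk2g (23.1 and 24.3) lay close. In CaMKIIβ RIP the order was Camk2a (214 ± 29.4), Camk2b (110.3 ± 12.9), Camk2n1 (61.3 ± 5.89), Camk2n2 (38.4 ± 17.3), Camk2g (31.2 ± 3.0) and Camk2d (7.06 ± 0.456). In IgG RIP (n = 3, as in CaMKIIβ RIP) Camk2g (32.0 ± 2.76) came before Camk2n2 (21.1 ± 4.12), with the other 4 genes in the same places. Camk2n2 and Camk2g overlapped in CaMKIIβ RIP, where Camk2n2 ranged from 23.9 to 57.6 and Camk2g from 29.4 to 34.6 CPM per kb. The range of Camk2n2 there also reached that of Camk2n1, from 56.1 to 67.7. The place of Camk2n2 above Camk2g rested on CaMKIIβ RIP replicate 2: without it Camk2n2 averaged 28.8 ± 6.87 and Camk2g 32.0 ± 3.71 CPM per kb (SD, n = 2), the order of IgG RIP.

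Among 14583 protein-coding genes ranked by CPM per kb, Camk2a was between the 43rd and the 62nd highest in CaMKIIβ RIP, between the 44th and the 50th in IgG RIP, and at places 105 and 127 in Input. Camk2b held places 132 to 187 in CaMKIIβ RIP, 134 to 143 in IgG RIP, and 194 in both Input libraries. Camk2n1 held places 326 to 482 in CaMKIIβ RIP, 318 to 422 in IgG RIP, and 238 and 260 in Input, so that it ranked higher in Input than in the 6 RIP libraries. Camk2d, the subunit with the lowest level per length, held places 5318 to 5807 in CaMKIIβ RIP, 5621 to 5800 in IgG RIP, and 4351 and 4183 in Input. Its exon length of 22493 bases is the longest of the 6 genes, against 9125 for Camk2b, 7465 for Camk2a, 6401 for Camk2g, 4444 for Camk2n1 and 1291 for Camk2n2. A joined exon length adds up all alternative transcripts, which lowers the level per length of a gene with many of them.

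**Figure D1:**
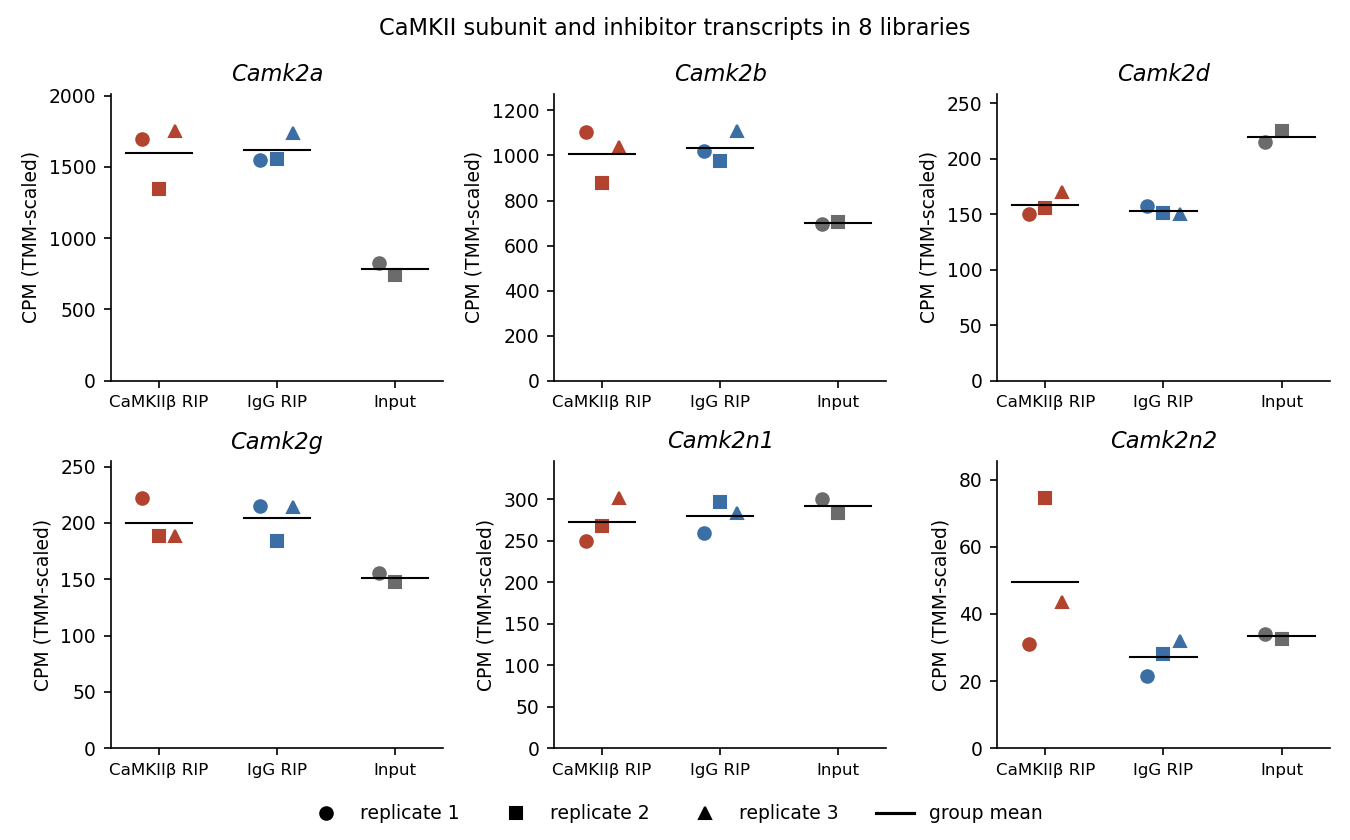
Level of each gene in CPM (scaled by TMM over all 8 libraries) in CaMKIIβ RIP, IgG RIP and Input; points are libraries, with a marker shape for each replicate number, and lines are group means. Camk2a, Camk2b and Camk2g were above Input in all 6 RIP libraries and Camk2d was below it, while the groups overlapped for Camk2n1 and CaMKIIβ RIP replicate 2 was the highest library for Camk2n2.

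The series compared the CaMKIIβ antibody with control IgG to find RNA that comes down with CaMKIIβ. For the kinase's own transcripts this comparison also asks whether the mRNAs of the subunits were enriched with the protein. Camk2b, which encodes the subunit the antibody recognises (ENSMUSG00000057897.14, GRCm38 chromosome 11, 5969644 to 6066362, minus strand), stood at 1105, 876 and 1039 CPM in CaMKIIβ RIP replicates 1, 2 and 3, at 1021, 973 and 1109 CPM in IgG RIP, and at 696 and 705 CPM in Input. The antibodies overlapped, and all 6 RIP libraries lay above Input. Camk2a, the α subunit (ENSMUSG00000024617.16), stood at 1696, 1347 and 1752 CPM in CaMKIIβ RIP, at 1548, 1559 and 1739 in IgG RIP, and at 823 and 738 in Input. The lowest and the highest of the 6 RIP values were both from CaMKIIβ RIP, and the groups of the 2 antibodies again overlapped.

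Camk2g, the γ subunit (ENSMUSG00000021820.18, chromosome 14, 20734875 to 20794088, minus strand), was at 222, 189 and 188 CPM in CaMKIIβ RIP, at 215, 184 and 214 in IgG RIP, and at 155 and 148 in Input. Camk2d, the δ subunit (ENSMUSG00000053819.16, chromosome 3, 126596302 to 126846326, plus strand), was at 150.1, 156 and 170.1 CPM in CaMKIIβ RIP, at 157, 152 and 150.3 in IgG RIP, and at 215 and 225 in Input. Camk2d was thus the only subunit of the 4 whose RIP values all lay below Input. For both genes the antibodies overlapped.

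The inhibitor Camk2n1 (ENSMUSG00000046447.3, chromosome 4, 138454314 to 138460123, plus strand) was at 249, 267 and 301 CPM in CaMKIIβ RIP, at 259, 296 and 283 in IgG RIP, and at 300.4 and 284 in Input. All 3 groups overlapped. The inhibitor Camk2n2 (ENSMUSG00000051146.2, chromosome 16, 20619215 to 20621287, minus strand) was at 30.9, 74.4 and 43.4 CPM in CaMKIIβ RIP, at 21.5, 27.95 and 32.1 in IgG RIP, and at 34.0 and 32.6 in Input. It was the most variable of the 6 genes in CaMKIIβ RIP relative to its mean, and its lowest CaMKIIβ value lay inside the IgG range.

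In the test across 20566 genes (edgeR's quasi-likelihood test with Benjamini-Hochberg adjustment, used for every comparison), 0 of the 6 genes differed between CaMKIIβ RIP and IgG RIP, where 0% of all genes were past the threshold of an adjusted p under 0.05. DESeq2 and limma-voom also called 0 of the 6. The libraries of the 2 antibodies overlapped for all 6 genes, while they did not overlap for 12.1% of all genes (5.12% higher and 6.93% lower in CaMKIIβ RIP). An unadjusted p under 0.05 was reached by 1 of the 6, Camk2n2, and by 3.51% of all genes tested. For the other 5 genes the 95% intervals bounded the difference closely. The log2 fold change of Camk2b was -0.03 ± 0.10 (SE, n = 3 and 3), with an interval from -0.25 to 0.20. For Camk2a the interval ran from -0.24 to 0.24, for Camk2d from -0.14 to 0.28, for Camk2g from -0.26 to 0.21, and for Camk2n1 from -0.25 to 0.20. A difference of 2-fold, 1 on this scale, lay outside all 5 intervals.

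Camk2n2 had a log2 fold change of 0.88 ± 0.29 (SE, n = 3 and 3), which is 1.84-fold, with an interval from 0.23 to 1.53. Its unadjusted p was 0.0134 and its adjusted p in edgeR's test was 0.982. Its fold change was above that of 96.0% of the genes tested. Without CaMKIIβ RIP replicate 2 the log2 fold change of Camk2n2 was 0.46 ± 0.19 (adjusted p = 0.837 in edgeR's test), and without each of the other 5 libraries in turn it lay between 0.73 and 1.12. With the exon length trend removed it was 1.39 ± 0.45 (adjusted p = 0.727 in edgeR's test). CaMKIIβ RIP replicate 2 was also the library in which the erythrocyte gene Hba-a1, singled out after its values were seen, was highest, at 110 CPM, against 28.8 and 31.4 CPM in CaMKIIβ RIP replicates 1 and 3, 23.6 to 27.8 in IgG RIP, and 49.7 and 57.4 in Input. Hba-a2 was highest in that library too, at 37.8 CPM, but the other 3 blood markers were not. Hbb-bs was at 181 CPM there, against 189 in CaMKIIβ RIP replicate 3 and 227 and 222 in Input. Hbb-bt was at 2.15 CPM, against 6.30 and 6.01 in Input. Alas2 was at 24.9 CPM, against 25.3 to 32.0 in the other RIP libraries. The 5 blood markers together summed to 181 to 356 CPM in CaMKIIβ RIP, 160 to 177 in IgG RIP and 318 to 320 in Input. The part of that library's other differences in the Camk2n2 value was not tested.

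**Figure D2:**
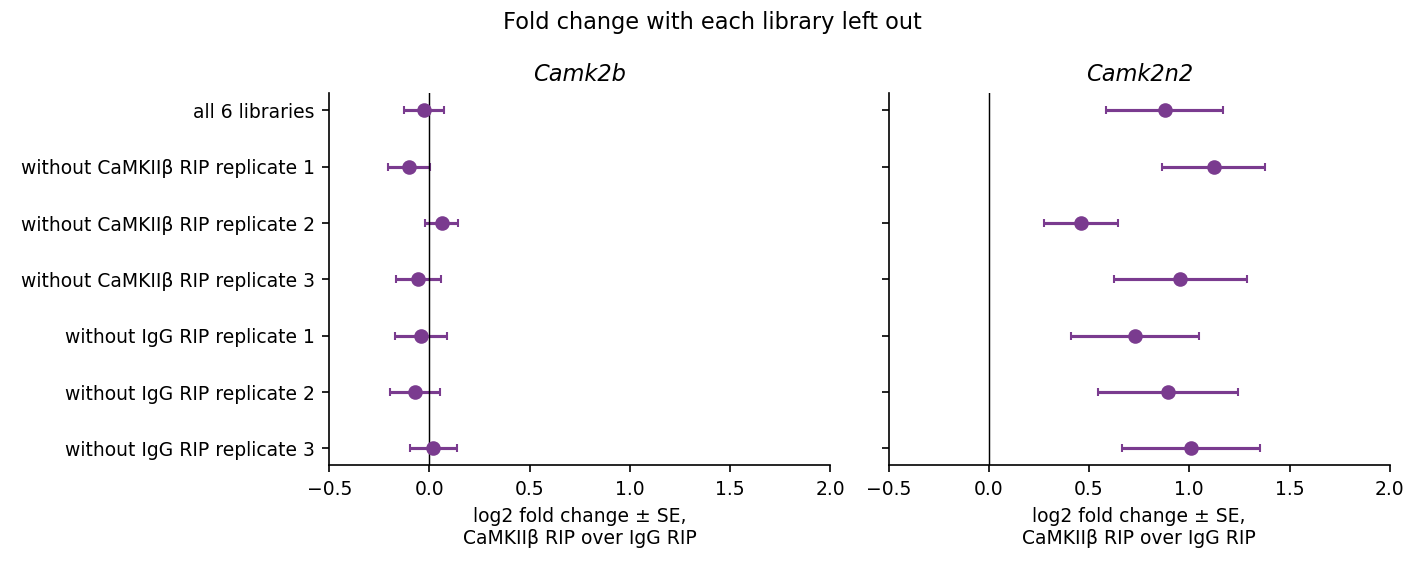
Log2 fold change of CaMKIIβ RIP over IgG RIP (x axis, bars are SE) for Camk2b and Camk2n2, from all 6 libraries and with each library left out in turn (rows). Camk2b stayed between -0.10 and 0.06, and Camk2n2 ranged from 0.46, without CaMKIIβ RIP replicate 2, to 1.12.

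Each antibody was next set against Input, which asks how far the transcripts of the precipitate differ from those of the tissue. Both comparisons use the same 2 Input libraries, so their values are given side by side and are not independent of each other. In CaMKIIβ RIP against Input, 2 of the 6 genes were higher (Camk2a and Camk2b) and 1 was lower (Camk2d), while of all 22095 genes 5.06% passed as higher and 3.4% as lower (8.45% in either direction). In IgG RIP against Input, 3 were higher (Camk2a, Camk2b and Camk2g) and 1 was lower (Camk2d), while of all 22342 genes 20.1% passed as higher and 18.7% as lower (38.7% in either direction). An unadjusted p under 0.05 was reached by Camk2a, Camk2b, Camk2d and Camk2g with either antibody, and by 22.6% of all genes with CaMKIIβ and 45.5% with IgG. The same 4 genes did not overlap with Input for either antibody, as was the case for 47.4% of all genes with CaMKIIβ and 60.3% with IgG. The median log2 fold change of the 6 genes was 0.46 with CaMKIIβ and 0.24 with IgG, beside -0.12 over all genes tested with CaMKIIβ and -0.02 with IgG. With library size as the only scaling, 683 genes of the whole table were higher and 1361 lower in CaMKIIβ RIP against Input, beside 1117 higher and 751 lower with TMM, and the median of all genes was -0.29. In IgG RIP against Input it was 2714 higher and 6345 lower, beside 4483 higher and 4170 lower with TMM.

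Camk2a had the largest change of the 6 in both comparisons with TMM scaling. With the exon length trend removed, Camk2n2 (1.41 ± 0.55, which did not pass) exceeded Camk2a (1.14 ± 0.11) in CaMKIIβ RIP against Input. Camk2a rose in CaMKIIβ RIP by 1.04 ± 0.14 on the log2 scale (SE; 2.05-fold; adjusted p = 0.00954 in edgeR's test) and in IgG RIP by 1.10 ± 0.07 (2.15-fold; adjusted p = 3.69e-09 in edgeR's test). Its fold change was above that of 95.5% of the genes tested with CaMKIIβ and of 96.7% with IgG. Every RIP library lay above both Input libraries for Camk2a, as did 18.9% of all genes in CaMKIIβ RIP and 29.5% in IgG RIP.

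Camk2b rose in CaMKIIβ RIP by 0.53 ± 0.12 (1.44-fold; adjusted p = 0.0425 in edgeR's test) and in IgG RIP by 0.62 ± 0.06 (1.53-fold; adjusted p = 8.47e-07 in edgeR's test). The call with CaMKIIβ stood near the threshold and was lost with library size as the only scaling (0.36), without CaMKIIβ RIP replicate 1 (0.49) or 3 (0.51), and without Input replicate 1 (0.50) or 2 (0.52). Camk2g had a log2 fold change of 0.40 ± 0.12 with CaMKIIβ, which did not pass (adjusted p = 0.0941 in edgeR's test), and rose by 0.49 ± 0.07 with IgG (1.40-fold; adjusted p = 5.37e-05 in edgeR's test). Camk2g lay above Input in all 3 libraries of each antibody, and without CaMKIIβ RIP replicate 2 it passed with CaMKIIβ as well, at 0.50 (adjusted p = 0.0253 in edgeR's test).

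Camk2d fell with both antibodies, by 0.47 ± 0.11 on the log2 scale in CaMKIIβ RIP (adjusted p = 0.044 in edgeR's test) and by 0.47 ± 0.06 in IgG RIP (adjusted p = 1.19e-05 in edgeR's test). The call with CaMKIIβ was near the threshold too. It was lost under RLE and upper quartile scaling (-0.43 each), without a count filter (-0.40), with the exon length trend removed (-0.53), without CaMKIIβ RIP replicate 1 (-0.39), and without Input replicate 1 (-0.52) or 2 (-0.45). All RIP libraries lay below both Input libraries for Camk2d, as did 28.5% of all genes in CaMKIIβ RIP and 30.8% in IgG RIP. Without CaMKIIβ RIP replicate 1, 0 genes of the whole table were called in CaMKIIβ RIP against Input, Camk2a among those lost (1.03, adjusted p = 0.0911 in edgeR's test).

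Neither inhibitor passed edgeR's test in either comparison with Input. Camk2n1 had a log2 fold change of -0.10 ± 0.12 with CaMKIIβ (adjusted p = 0.746 in edgeR's test) and -0.01 ± 0.07 with IgG (adjusted p = 0.938 in edgeR's test), with intervals from -0.37 to 0.18 with CaMKIIβ and from -0.15 to 0.13 with IgG. Camk2n2 had 0.58 ± 0.34 with CaMKIIβ (adjusted p = 0.409 in edgeR's test) and -0.24 ± 0.14 with IgG (adjusted p = 0.194 in edgeR's test). Its interval with CaMKIIβ, from -0.23 to 1.38, was the widest of the 6, and without CaMKIIβ RIP replicate 2 its log2 fold change against Input was 0.22. With the exon length trend removed that value was 1.41 (adjusted p = 0.182 in edgeR's test). With library size as the only scaling, which moved the median of all genes in IgG RIP against Input to -0.25, against -0.02 with TMM, both inhibitors passed as lower with IgG (Camk2n1 -0.24, Camk2n2 -0.46). Camk2n2 passed as lower with IgG without IgG RIP replicate 3 as well (-0.37), while without IgG RIP replicate 1 its log2 fold change was -0.092 (adjusted p = 0.58 in edgeR's test).

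**Figure D3:**
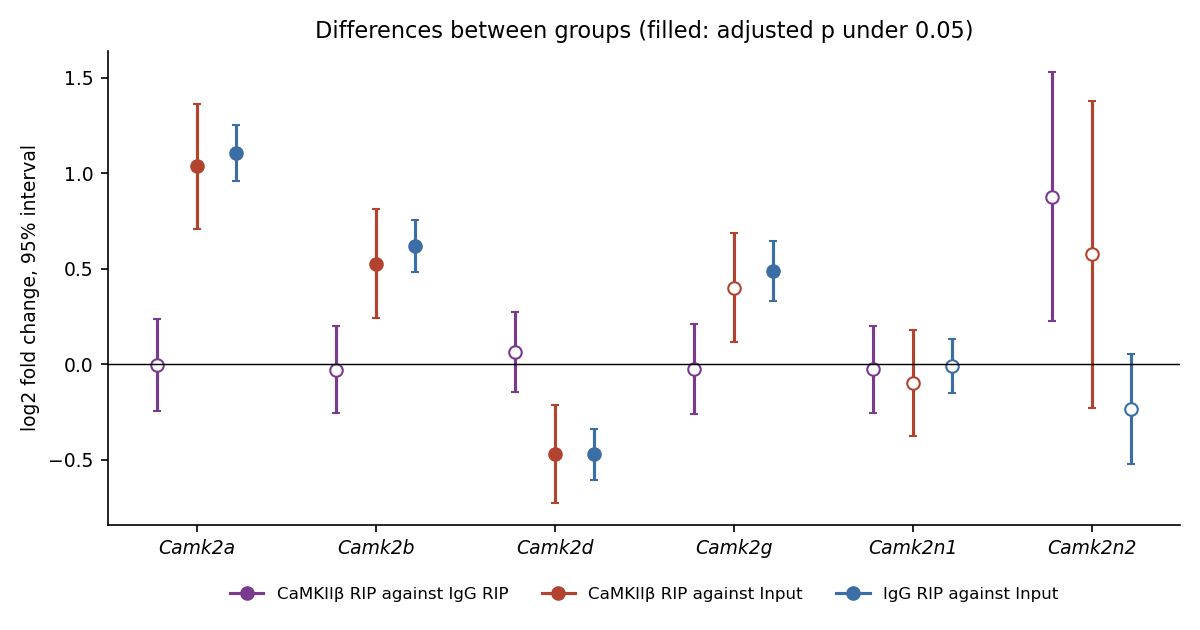
Log2 fold change of each gene with its 95% interval for the 2 antibodies against each other and for each antibody against Input; filled points passed an adjusted p under 0.05. The values between antibodies lie near 0 except for Camk2n2, and against Input Camk2a is at 1.04 with CaMKIIβ and 1.10 with IgG and Camk2d at -0.47 in both comparisons.

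Library scaling cannot show a difference in the total RNA recovered, whereas ratios between the 6 genes within a library do not depend on how libraries are scaled. They are given as values without a test. Of the summed CPM per kb of the 4 subunits, Camk2a made up 58.3%, 57.7% and 60.9% in CaMKIIβ RIP, 57.6%, 59.5% and 59.0% in IgG RIP, and 50.1% and 47.3% in Input. Camk2b made up 31.1%, 30.7% and 29.5% in CaMKIIβ RIP, 31.1%, 30.4% and 30.8% in IgG RIP, and 34.6% and 36.9% in Input. The share of Camk2b, the target of the antibody, thus overlapped between the antibodies and was lower in all 6 RIP libraries than in Input.

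Camk2d made up 1.71%, 2.22% and 1.96% of the subunit sum in CaMKIIβ RIP, 1.94%, 1.92% and 1.69% in IgG RIP, and 4.34% and 4.78% in Input. For Camk2g the shares were 8.89%, 9.42% and 7.62% in CaMKIIβ RIP, 9.33%, 8.2% and 8.49% in IgG RIP, and 11.01% and 11.02% in Input. Of the 4 subunits, only Camk2a thus took a larger share in the RIP libraries than in Input. Shares of 1 sum depend on each other, so a larger share of Camk2a lowers the rest. In CPM, Camk2b and Camk2g themselves lay above Input in every RIP library. The ratio of Camk2a to Camk2b per length was 1.88, 1.88 and 2.06 in CaMKIIβ RIP, 1.85, 1.96 and 1.92 in IgG RIP, and 1.45 and 1.28 in Input, so the α transcript exceeded the β transcript in every library.

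Relative to the subunit sum, Camk2n1 was at 14.4%, 19.2% and 17.6% in CaMKIIβ RIP, at 16.2%, 19.0% and 16.2% in IgG RIP, and at 30.7% and 30.5% in Input. With TMM scaling Camk2n1 itself did not pass edgeR's test against Input, while the 2 most abundant subunits rose. With library size as the only scaling, Camk2n1 passed as lower with IgG (-0.24) and Camk2b did not pass with CaMKIIβ (0.36). Camk2n2 was at 6.15%, 18.4% and 8.73% of the subunit sum in CaMKIIβ RIP, at 4.63%, 6.17% and 6.29% in IgG RIP, and at 11.95% and 12.1% in Input. CaMKIIβ RIP replicate 2 was the only RIP library in which this ratio exceeded that of Input. There Camk2n1 was 1.04 times as high as Camk2n2 per length, against 2.01 to 3.49 times in the other RIP libraries and 2.57 and 2.53 times in Input.

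**Figure D4:**
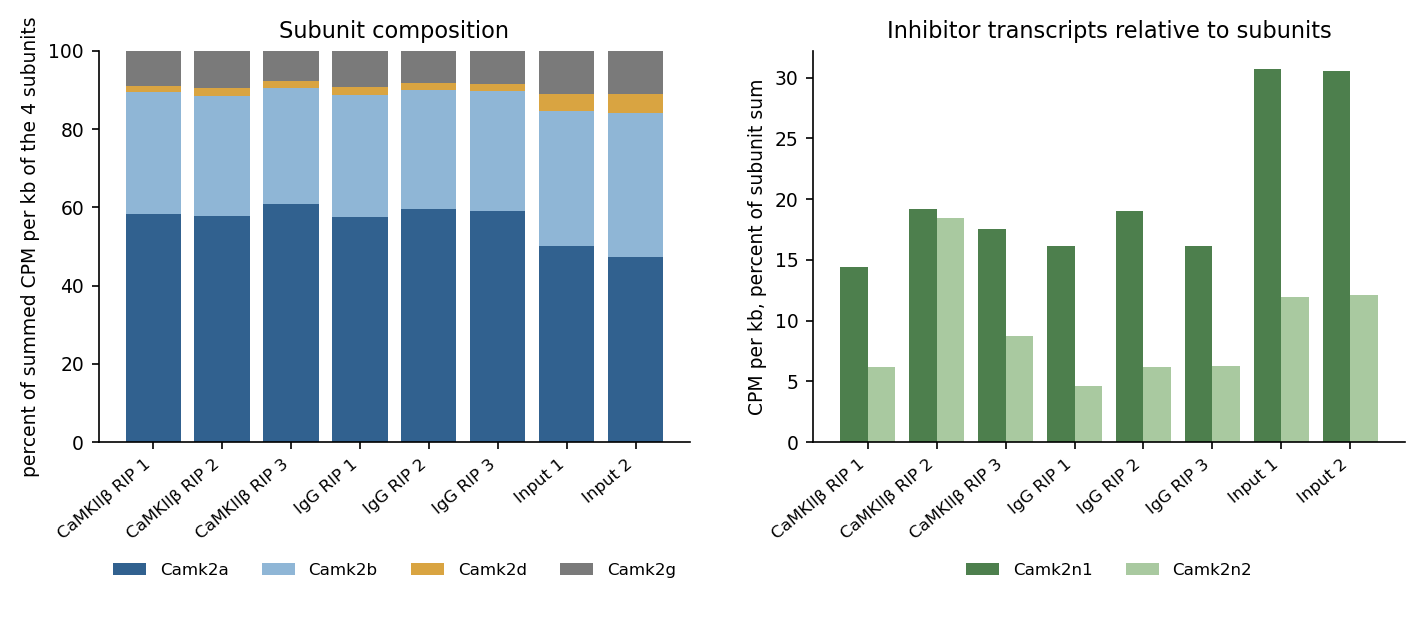
Left, share of each subunit gene in the summed CPM per kb of the 4 subunits in each library (y axis in percent); right, Camk2n1 and Camk2n2 as a percent of that sum. Camk2a took 57.6% to 60.9% in the RIP libraries against 47.3% and 50.1% in Input, and Camk2n1 relative to the subunits was 14.4% to 19.2% against 30.5% and 30.7%.

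The span of Camk2d holds 7 further genes of the table on the same strand, all within its introns and without a RefSeq name, and 1 gene on the opposite strand. None of their exons overlaps an exon of Camk2d. Reads from these 7 genes and from unspliced Camk2d RNA cannot be told apart in the table. Their summed level was 21.1, 13.3 and 27.5 CPM in CaMKIIβ RIP, 27.6, 25.0 and 26.98 CPM in IgG RIP, and 40.6 and 38.9 CPM in Input, so that it was lower in all 6 RIP libraries than in Input, as was Camk2d itself. No exon of another gene in the table overlaps an exon of any of the 6 genes.

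Patterns over the 8 libraries were compared by Pearson's r of log2 CPM, among 5688 named genes whose log2 CPM averaged 4 or more and had an SD of 0.2 or more. The 8 points share the contrast between RIP and Input, so high values of r are common. The genes most like Camk2a were Ppp1r9b (r = 0.998), which encodes the spine protein spinophilin, and Srcin1 (r = 0.998), and 528 of the genes reached an r of at least 0.95. Among those most like Camk2b was Nfe2l1 (r = 0.995), a transcription factor. For Camk2d they were the nuclear import factor Kpna4 (r = 0.998) and Atp11b (r = 0.994), and for Camk2g Ap1m1 (r = 0.985) and Eif3l (r = 0.983). Camk2n1, whose log2 CPM had an SD of only 0.10, was most like Sumf1 (r = 0.931) and Prr13 (r = 0.875). For Camk2n2 they were Spns1 (r = 0.983) and Abhd17c (r = 0.96), with 4 genes at an r of at least 0.95. Without CaMKIIβ RIP replicate 2, where both genes were also highest, Camk2n2 had an r of 0.951 with Spns1 and 0.853 with Abhd17c.

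Among the 6 genes, Camk2a and Camk2b had an r of 0.974, Camk2a and Camk2g 0.902, and Camk2a and Camk2d -0.933. Camk2n2 had an r between -0.18 and 0.09 with each of the other 5, but without CaMKIIβ RIP replicate 2 it had -0.35 with Camk2g, 0.33 with Camk2d and 0.58 with Camk2n1. These values describe 8 libraries in 3 groups and carry no test.

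The partners of the kinase were described with a list of 28 genes, all tested in all 3 comparisons: calmodulin genes and genes of proteins that bind calmodulin, receptors and channels, scaffolds and other partners or substrates, and phosphatases. Between CaMKIIβ RIP and IgG RIP, 0 of the 28 passed edgeR's test, beside 0% of all genes. An unadjusted p under 0.05 in that test was reached by 2 of the 28 and by 3.51% of all genes. The median log2 fold change was 0.01 beside -0.02 over all genes. In CaMKIIβ RIP against Input 6 were higher and 2 lower, where 5.06% of all genes were higher and 3.4% lower, and the median was 0.28 beside -0.12 over all genes. In IgG RIP against Input 14 were higher and 4 lower, where 20.1% of all genes were higher and 18.7% lower, and the median was 0.37 beside -0.02. The count with CaMKIIβ depended on single libraries, as did the count over all genes. Without CaMKIIβ RIP replicate 1, 0 passed, beside 0 of all 21439 genes. Without CaMKIIβ RIP replicate 2, 12 were higher and 3 lower, beside 2471 higher and 1618 lower of all 21901 genes. Without CaMKIIβ RIP replicate 3 it was 4 and 2, beside 1027 and 855 of all 21426 genes. Fewer were called without either Input library, in the list and over all genes, in fits with 1 Input library left. With library size as the only scaling, 2 were higher and 5 lower with CaMKIIβ, beside 683 and 1361 of all 22095 genes.

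The activators did not move as 1 group. Calm2 and Calm3 encode the same protein, calmodulin. Calm2 fell with both antibodies against Input, by 0.78 ± 0.09 on the log2 scale in CaMKIIβ RIP (332 ± 3.48 against 569 ± 2.77 CPM in Input, SD) and by 0.75 ± 0.06 in IgG RIP. Calm3 had 0.42 ± 0.12 with CaMKIIβ, which did not pass, and rose by 0.46 ± 0.07 with IgG. Nrgn, which encodes the calmodulin-binding protein neurogranin, passed with neither (0.05 ± 0.19 with CaMKIIβ and 0.10 ± 0.08 with IgG). The lowest value of the list was that of Pcp4, which encodes a calmodulin-binding protein and is named here after its values were seen. Pcp4 had -3.46 ± 0.87 in CaMKIIβ RIP, which did not pass (adjusted p = 0.0523 in edgeR's test), and -2.26 ± 0.40 in IgG RIP, which did. Its level was low and uneven, at 0.562 ± 0.412 CPM in CaMKIIβ RIP and 6.31 ± 3.94 CPM in Input (SD, n = 3 and 2).

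Among receptors and channels, 3 of 6 were higher with CaMKIIβ and 5 of 6 with IgG, and 0 were lower. Of all genes, 5.06% were higher and 3.4% lower with CaMKIIβ, and 20.1% were higher and 18.7% lower with IgG. The scaffold and phosphatase counts stand against the same shares. Grin1, the obligatory NMDA receptor subunit, rose by 0.92 ± 0.11 in CaMKIIβ RIP (513 ± 24.5 against 271 ± 27.2 CPM in Input) and by 1.02 ± 0.08 in IgG RIP. Grin2b, which encodes the NMDA receptor subunit that docks active CaMKII, had 0.29 ± 0.15 with CaMKIIβ, which did not pass, and rose by 0.54 ± 0.06 with IgG. Among scaffolds and other partners, 3 of 10 were higher with CaMKIIβ and 7 of 10 with IgG, and 0 were lower. Shank3, a scaffold of the postsynaptic density, rose by 1.21 ± 0.11 with CaMKIIβ and by 1.17 ± 0.07 with IgG. Of 6 phosphatase genes, 0 were higher and 1 was lower with CaMKIIβ, and 1 was higher and 2 were lower with IgG. The lower one with CaMKIIβ was Ppp2ca, the catalytic subunit of protein phosphatase 2A, which fell by 0.67 ± 0.14 (adjusted p = 0.0318 in edgeR's test). Ppp2ca also fell with IgG, by 0.67 ± 0.06 (adjusted p = 1.46e-07 in edgeR's test).

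**Figure D5:**
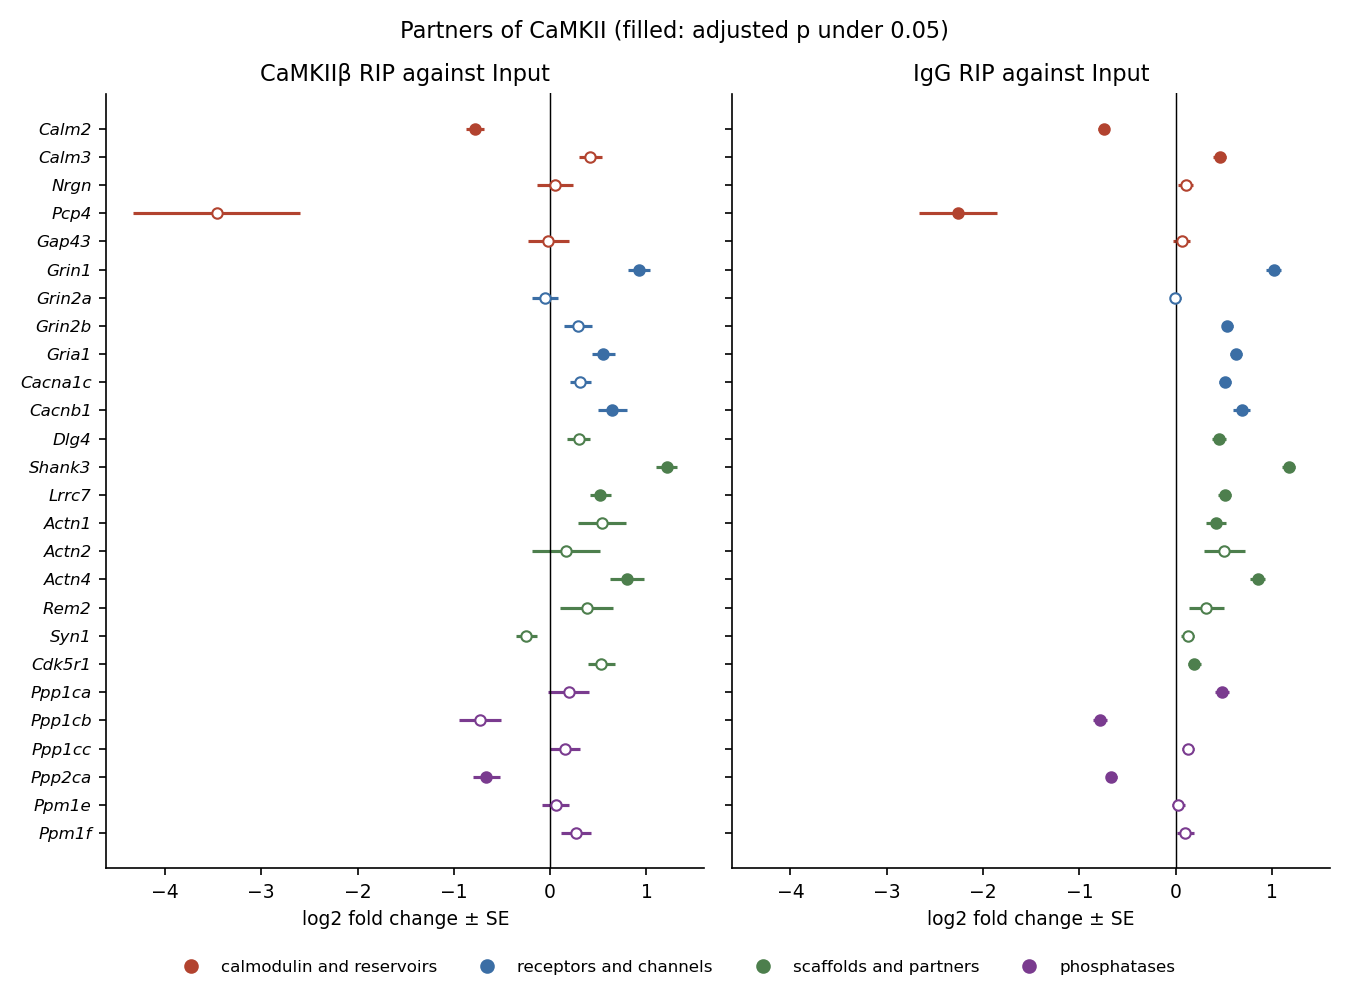
Log2 fold change (x axis, bars are SE) of partner genes in CaMKIIβ RIP against Input (left) and IgG RIP against Input (right), coloured by role; filled points passed an adjusted p under 0.05. The largest rise past the threshold with CaMKIIβ was Shank3 at 1.21 and the largest fall was Calm2 at -0.78.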

How the data were processed

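RNA was sequenced from 3 CaMKIIβ RIP, 3 IgG RIP and 2 Input libraries. The deposited table holds raw counts per gene in 8 columns, each matched to a sample by name. Per the submitters' processing notes, the tools behind it were cutadapt 2.10, Trim Galore 0.6.4, featureCounts 2.0.1 and STAR 2.7.3a, with the genome GRCm38.p6. Not given in the sources used here are the annotation release, the handling of reads with several positions and whether counting used strand. Exon lengths in bases are a further deposited column. Symbols were taken from RefSeq genes of GRCm38.p6 where the shared span was at least 0.5 of the joint span and both were each other's best partner, which named 34132 of 55401 genes.

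A separate model per comparison used edgeR 4.0.16 (R 4.3.3): TMM scaling, filterByExpr (minimum count 10, minimum total 15) and the robust quasi-likelihood test, adjusted over all genes tested, with no replicate block. Intervals are 95% t intervals from the fit. CPM values were scaled by TMM over all 8 libraries, except those beside fold changes of partner genes, which were scaled within the comparison. Alternatives used DESeq2 1.42.0, limma-voom (limma 3.58.1), other scalings, no count filter, 1 fit of all 8 libraries, the replicate block, removal of a loess trend on exon length (span 0.5) and each library left out; those for the partner list were added after seeing the data. The code was tested on simulated counts.

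The 6 genes, the lists and the tests were chosen with earlier results of these data known. Genes named are the 6, the 2 with the highest r to each, and of the partner list a few fixed by name (Calm2, Calm3, Nrgn and Grin2b among them) and up to 2 rises and 2 falls, the largest past the threshold in CaMKIIβ RIP against Input. No 2 libraries agreed within sampling noise (smallest chi-square per gene 4.38). Some genes that this rule names are not reported here.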

Additional observations from a re-analysis of the deposited data

How the results depend on the processing

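In IgG RIP against Input, Camk2a, Camk2b, Camk2d and Camk2g kept direction and call under all 14 alternatives. In CaMKIIβ RIP against Input they kept their direction in all 14, but Camk2a lost its call in 1, Camk2b in 5 and Camk2d in 7, and Camk2g gained one in 5. Left-out libraries moved the number of the 6 called there from 0 (without CaMKIIβ RIP replicate 1) to 4 (without CaMKIIβ RIP replicate 2), with 1 without either Input library. Over all genes, 1868 were called in CaMKIIβ RIP against Input, against 2866 without a count filter, 3448 with DESeq2 and 3833 in 1 fit of all 8 libraries, and 0 to 4089 with a library left out (845 without Input replicate 1, 400 without Input replicate 2). In IgG RIP against Input it was 8653, against 3676 in 1 fit of all 8 libraries and 5659 (without Input replicate 2) to 9017 with a library left out. The cause of these moves was not tested.

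Replicate numbers were not shown to pair libraries. Deviations from the group mean correlated at -0.0964 to 0.000498 for same-numbered CaMKIIβ and IgG libraries and at -0.0490 to 0.0652 for differently numbered ones. For same-numbered CaMKIIβ and Input libraries it was 0.0719 and 0.125. With only 2 Input libraries their deviations mirror each other, so each r returns with the opposite sign for the other number. Deviations sum to 0 within each group, so these values are not independent. With the replicate block, 4205 of 22095 genes were called in CaMKIIβ RIP against Input, with 4 of the 6 genes. In IgG RIP against Input 8931 of 22342 genes were called, with 5 of the 6 (Camk2n2 -0.38). Between antibodies 0 genes were called. Input has no replicate 3, so in both comparisons with Input that block held only a RIP library, which did not inform the difference.

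Small values changed sign. Between antibodies Camk2a was 5.64e-04 with RLE and 5.81e-04 with DESeq2, and with the length trend removed Camk2a was 0.079, Camk2b 0.049, Camk2g 0.076 and Camk2n1 0.12. Leaving out a library gave -0.079 to 0.10 for Camk2a, -0.10 to 0.061 for Camk2b, -0.11 to 0.012 for Camk2g and -0.11 to 0.032 for Camk2n1. Camk2n1 with the length trend removed was 0.15 in CaMKIIβ RIP and 0.023 in IgG RIP against Input, and in the second 8.02e-04 with RLE, 8.58e-04 with DESeq2 and -0.051 to 0.045 with a library left out. Camk2n2 was 0.023 in IgG RIP against Input with the length trend removed.

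From counts not divided by length, shares of the subunit sum in CaMKIIβ RIP, IgG RIP and Input were 53.8%, 53.7% and 42.1% for Camk2a, 34.0%, 34.4% and 37.8% for Camk2b, 5.40%, 5.10% and 11.9% for Camk2d, and 6.77%, 6.80% and 8.17% for Camk2g. Relative to that sum Camk2n1 was 9.27%, 9.32% and 15.8%, and Camk2n2 1.75%, 0.902% and 1.80%.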
